A study of Mus musculus with 11 samples.

Results

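The genes described here are 10 members of the Hippo pathway and its transcriptional output, *Yap1*, *Wwtr1*, *Tead1*, *Lats2*, *Ccn1*, *Ccn2*, *Ankrd1*, *Amotl2*, *Axl* and *Ajuba*, taken by gene name from a list that was drawn up with earlier results of these data known. They are 10 of the 24849 genes left after the counts were summed by gene name, and each had 1 entry in the table and passed the filter on low counts. The RNA came from AML12, an immortalised hepatocyte line from mouse liver, in 3 states. The KO libraries (n = 4) carry a *Txndc5* disruption made with a CRISPR/Cas9 plasmid and a repair plasmid that inserted a puromycin resistance gene, and the labels list this genotype as a knockdown. The KI libraries (n = 4) are labelled TXNDC5 knock-in, with the construct placed at the ROSA26 safe-harbour locus, and the promoter that drives it is not given in the sources used here. The WT libraries (n = 3) are unmodified AML12 cells, and 1 of them is labelled 5-6. Both modified lines were selected or engineered derivatives of AML12, and whether each is 1 clone is not stated. Nothing in the labels says that replicates were separate cultures, so p-values measure only the spread between these libraries, which may be technical. The KO libraries held between 30380360 and 38422243 counts each, the WT libraries between 29840366 and 30364098, and the KI libraries between 32360709 and 35335070.

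The Hippo pathway is a kinase cascade that holds back cell growth. When it is active, the LATS kinases phosphorylate YAP (encoded by *Yap1*) and TAZ (encoded by *Wwtr1*), which then stay in the cytoplasm or are degraded, and when it is inactive YAP and TAZ enter the nucleus and act as coactivators of the TEAD DNA-binding proteins. In liver the pathway limits organ size and keeps hepatocytes differentiated, and *Ccn1*, *Ccn2*, *Ankrd1*, *Amotl2* and *Axl* are widely used as readouts of YAP and TAZ activity. Since that activity is set largely by phosphorylation and location of the proteins, mRNA of *Yap1* and *Wwtr1* is not a measure of it.

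TEAD proteins bind the core motif GGAATG, and the RefSeq promoter table for build GRCm38.p6 (250 bases before to 50 bases after each annotated start) held 10 promoters of 8 of the genes. *Ccn2* and *Tead1* had no entry. The motif was searched on both strands. It was found in 9 of the 10 promoters, in at least 1 promoter of each of the 8 genes, against 14.7% of all 32851 promoters in the table and 16.6% of its 27025 genes. The match of *Lats2* lies after the start, at 4. The genes were listed as Hippo members and YAP targets, and the difference from these shares was not tested. The promoters of *Wwtr1* overlap and share the same site, which is counted for each of them. The AP-1 motif TGANTCA and the CArG box of SRF, both also searched on both strands, had no match in the 10 promoters, and were held by 7.81% and 1.63% of all promoters. These matches are a description of letters in a window, not of bound sites, and the genome build of the counts is not stated. The 250 bases before the start of *Ccn1*, the gene with the largest fold change of the 10 in KI against WT, are shown whole, on the gene's strand from chr3:145649986-145650235 (minus strand), where no GENCODE exon lies. Capitals mark the motif, here read on the opposite strand.
Ccn1: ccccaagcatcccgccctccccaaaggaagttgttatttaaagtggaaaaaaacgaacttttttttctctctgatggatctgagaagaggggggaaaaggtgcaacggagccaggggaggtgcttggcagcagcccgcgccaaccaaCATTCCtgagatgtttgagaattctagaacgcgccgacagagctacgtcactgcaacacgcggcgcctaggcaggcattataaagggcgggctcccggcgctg

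For the other genes that passed the test in at least 1 comparison, 30 bases around each match are shown on the gene's strand, so that flanking bases can be compared. *Ankrd1* had 2 matches in the gene's own orientation, at chr19:36120037-36120066 and chr19:36119950-36119979 (minus strand). *Amotl2* had 1 match on the opposite strand at chr9:102717727-102717756 (plus strand). *Axl* had 1 match in the gene's orientation at chr7:25788949-25788978 (minus strand), and *Ajuba* had 2 on the opposite strand at chr14:54577830-54577859 and chr14:54577808-54577837 (minus strand). Capitals again mark the motif or its reverse complement.
Ankrd1 (distal): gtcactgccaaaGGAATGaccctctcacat
Ankrd1 (proximal): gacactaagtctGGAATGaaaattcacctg
Amotl2: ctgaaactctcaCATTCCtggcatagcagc
Axl: ggaaattctacaGGAATGtttaccagaccc
Ajuba (distal): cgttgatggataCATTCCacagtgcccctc
Ajuba (proximal): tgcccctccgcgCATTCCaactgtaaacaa

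**Figure D1:**
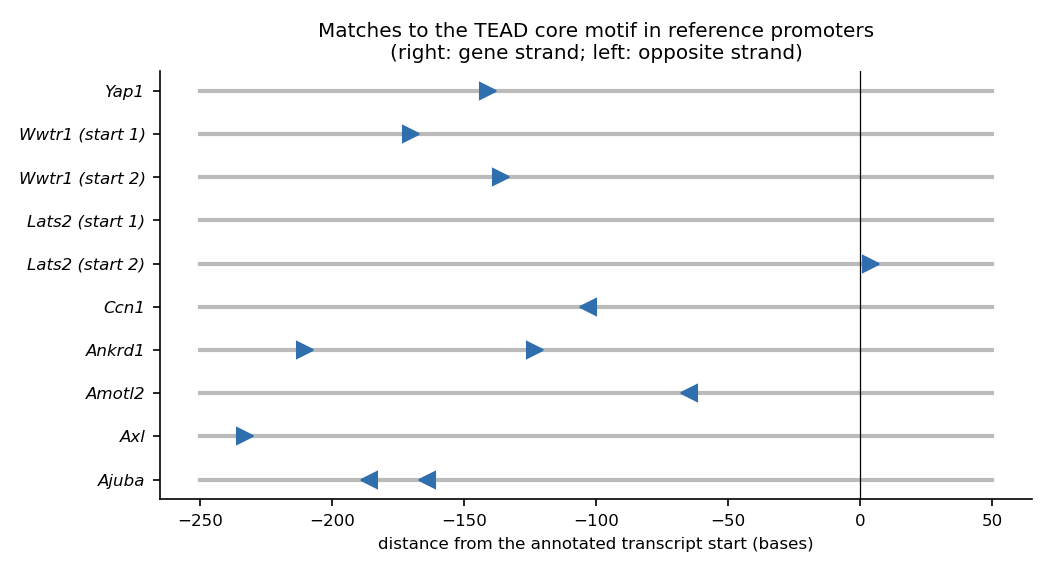
Positions of the TEAD core motif in the 10 reference promoters of 8 genes; the horizontal axis is the distance from the annotated transcript start in bases, grey lines are the windows searched, and arrowheads give the strand of each match. The matches of *Ccn1* (-103), *Ankrd1* (-210 and -123) and *Amotl2* (-65) lie before the RefSeq start. The match of *Lats2* (4) lies after it, and 1 of the 2 *Lats2* promoters has no match.

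Levels are given as CPM, the counts scaled to a common library size by TMM over all 11 libraries. Fold changes come from the quasi-likelihood test of edgeR, p-values were adjusted by the method of Benjamini and Hochberg over every gene tested, and an adjusted p under 0.05 is called a change. Libraries differed in composition. The most abundant newly assembled entry, which has no gene name, took 11.3% to 17.1% of the WT counts, 4.32% to 6.44% of the KO counts and 4.82% to 9.12% of the KI counts. Scaling by library totals in place of TMM moved the median over all genes of the log2 fold change to 0.38 in KO against WT and to 0.30 in KI against WT. The share of calls that were higher went from 48.5% to 72.8% and from 50.2% to 76.3%. Fold changes below are relative to the TMM scaling. Among the WT libraries, WT 8 was at an end of the range for each of these genes. It had the highest of the 3 WT values for 7 of the 10 genes and the lowest for the other 3. WT 5-6 was the lowest for 6 and the highest for 1. Calls of the 10 genes that change without WT 8 are given both ways.

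*Txndc5*, the targeted gene, encodes a disulfide isomerase of the endoplasmic reticulum. Its level was 10.2, 8.50, 12.9 and 9.39 CPM in KO 5, 6, 7 and 8, 147, 138 and 143 CPM in WT 5-6, 7 and 8, and 158, 179.5, 176 and 163 CPM in KI 5, 6, 7 and 8. It fell by 3.81 (SE 0.15) on the log2 scale in KO against WT (adjusted p = 4.09e-08, edgeR). The KI libraries all lay above the WT libraries, but the log2 fold change of 0.24 (SE 0.12) did not pass the test (adjusted p = 0.136, edgeR), a mean 1.18-fold higher level. With library totals it was 0.57 and passed (adjusted p = 0.00623, edgeR). The label of the KI group therefore has no called rise of *Txndc5* mRNA behind it under TMM scaling, and KI is used below as the name the labels give.

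Of the 10 genes, *Ccn1*, *Ccn2*, *Ankrd1* and *Amotl2* changed in all 3 comparisons, and for each of them the largest of the 3 fold changes was one that involved KI, against WT for *Ccn1* and *Amotl2* and against KO for *Ccn2* and *Ankrd1*. The matricellular genes *Ccn1* and *Ccn2* and the nuclear ankyrin repeat gene *Ankrd1* were highest in KI, with 243, 423 and 679.6 CPM on average. *Ccn2* and *Ankrd1* were lowest in KO and *Ccn1* was lowest in WT. *Yap1*, *Wwtr1*, *Tead1* and *Lats2*, which encode the coactivators, a DNA-binding partner and an inhibitory kinase, passed the test in none of the 3 comparisons.

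**Figure D2:**
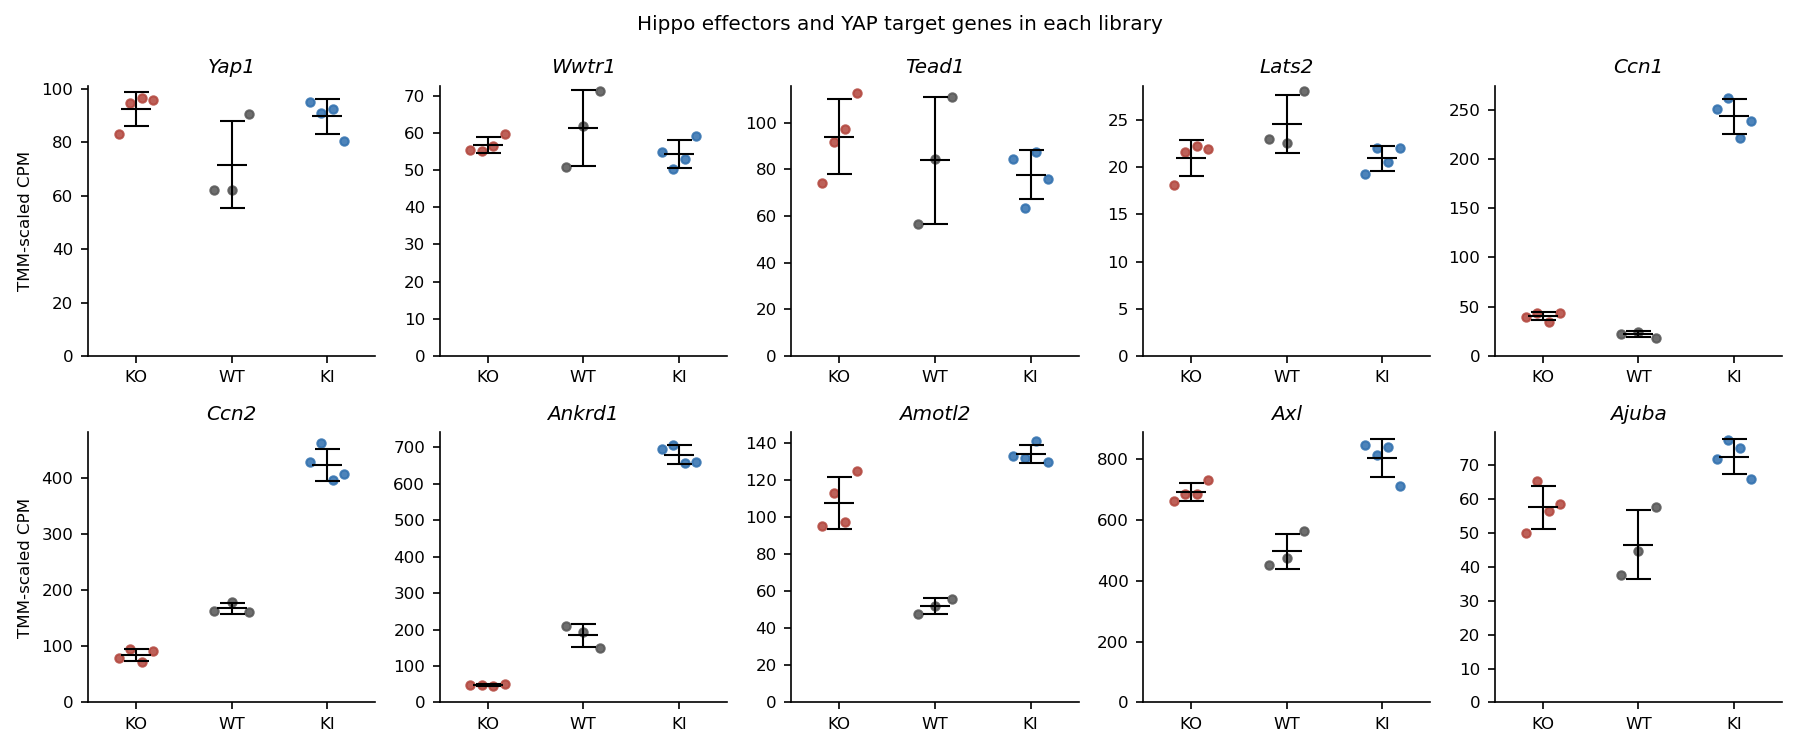
TMM-scaled CPM of each of the 10 genes (vertical axes, each from 0) in the KO, WT and KI libraries; points are libraries, and black bars are means ± SD (n = 4, 3 and 4). *Ankrd1* libraries form 3 separate groups around 47.8, 184 and 679.6 CPM, whereas the KO, WT and KI libraries of *Tead1* and *Wwtr1* overlap.

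*Yap1*, which encodes the coactivator YAP, had 83.0, 94.7, 96.5 and 96.0 CPM in KO 5, 6, 7 and 8, 62.1, 62.3 and 90.6 CPM in WT 5-6, 7 and 8, and 95.1, 91.2, 92.5 and 80.4 CPM in KI 5, 6, 7 and 8. The 2 lowest values were in WT 5-6 and WT 7, and WT 8 lay inside the range of both modified lines. The log2 fold change was 0.35 (SE 0.15) in KO against WT and 0.33 (SE 0.16) in KI against WT, and neither passed the test (adjusted p = 0.0695 and 0.111, edgeR). Without WT 8 both passed, at 0.58 (adjusted p = 0.000612) and 0.53 (adjusted p = 0.00265, edgeR). Both also passed with library totals, at 0.74 (adjusted p = 0.0108) and 0.63 (adjusted p = 0.0267, edgeR), and KO against WT passed with all 11 libraries in 1 fit (adjusted p = 0.0304, edgeR) and with the replicate numbers as a block (adjusted p = 0.00886, edgeR). KO and KI differed by 0.05 (SE 0.09, 95% interval -0.13 to 0.22).

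*Wwtr1*, which encodes TAZ, had 55.3, 55.1, 56.6 and 59.7 CPM in the KO libraries, 50.9, 61.9 and 71.3 CPM in the WT libraries and 55.0, 50.3, 52.9 and 59.3 CPM in the KI libraries. The WT values spanned those of both lines apart from KI 6. The log2 fold changes were -0.14 (SE 0.13) in KO and -0.18 (SE 0.14) in KI against WT, with adjusted p of 0.409 and 0.347 (edgeR). The sign of both turned positive with library totals, and that of KO against WT also without WT 8.

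*Tead1*, a DNA-binding partner of YAP and TAZ, ranged from 74.0 to 113 CPM in KO, from 56.6 to 111 CPM in WT and from 63.6 to 87.3 CPM in KI. The WT range was the widest and covered the whole KI range. The log2 fold changes of 0.15 (SE 0.21) in KO and -0.11 (SE 0.20) in KI against WT did not pass the test (adjusted p = 0.586 and 0.687, edgeR), and intervals of -0.27 to 0.56 and -0.50 to 0.28 leave room for differences in either direction. KO was 0.28 (SE 0.13) above KI on the log2 scale, which also missed the threshold (adjusted p = 0.0793, edgeR) but passed it without KO 5 (0.37, adjusted p = 0.0148) and without KI 7 (0.34, adjusted p = 0.0451).

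*Lats2*, a kinase that phosphorylates YAP and TAZ and is itself a reported target of YAP, had 18.1, 21.6, 22.2 and 21.9 CPM in KO, 23.0, 22.6 and 28.1 CPM in WT and 19.3, 22.0, 20.5 and 22.0 CPM in KI. Each WT library lay above each KO and KI library. The differences were small, -0.25 (SE 0.14) in KO and -0.23 (SE 0.14) in KI against WT on the log2 scale, and did not pass the test (adjusted p = 0.155 and 0.215, edgeR). With library totals both signs turned positive. GENCODE places a gene on the same strand over part or all of the *Lats2* exons, and reads from the shared bases cannot be told apart. The same holds for *Yap1* and *Ccn2* with genes on the opposite strand if strand was not used in counting, which is not stated. The extent of these overlaps was not measured, and none of the overlapping genes has an entry in the deposited counts.

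Among the secreted targets, *Ccn1*, which encodes a matricellular protein (CYR61) that binds integrins, had 22.2, 24.8 and 18.6 CPM in WT 5-6, 7 and 8. It had 40.0, 43.3, 34.3 and 43.9 CPM in KO 5, 6, 7 and 8 and 251, 262, 221 and 239 CPM in KI 5, 6, 7 and 8. The 3 groups did not overlap, and the step from KO to KI was far wider than the one from WT to KO. *Ccn1* was 1.82-fold higher in KO than in WT (log2 fold change 0.86, SE 0.15, adjusted p = 0.000676, edgeR) and 11.1-fold higher in KI than in WT (3.47, SE 0.16, adjusted p = 4.51e-08, edgeR). Only 35 of the 13534 genes tested in KI against WT (0.259%) had a larger log2 fold change. KI exceeded KO 6.00-fold (adjusted p = 2.74e-11, edgeR).

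*Ccn2*, which encodes connective tissue growth factor, had 163, 178 and 161 CPM in the WT libraries, 78.6, 94.8, 71.7 and 90.8 CPM in the KO libraries and 428, 461, 396 and 406 CPM in the KI libraries. All KO libraries lay below and all KI libraries above the WT libraries. *Ccn2* fell 2.02-fold in KO against WT (log2 fold change -1.01, SE 0.13, adjusted p = 8.64e-05, edgeR) and rose 2.52-fold in KI against WT (1.34, SE 0.14, adjusted p = 1.52e-05, edgeR). KI exceeded KO 5.02-fold (adjusted p = 1.03e-10, edgeR). In KO against WT, *Ccn1* and *Ccn2* thus passed the test in opposite directions, a difference between the genes that was not itself tested.

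*Ankrd1*, which encodes a nuclear and sarcomeric ankyrin repeat protein, had 210.1, 193 and 149 CPM in WT 5-6, 7 and 8, 48.3, 47.6, 45.7 and 49.7 CPM in KO 5, 6, 7 and 8 and 695, 708, 656 and 659 CPM in KI 5, 6, 7 and 8. The groups were far apart and the KO libraries were tight, with an SD of 1.67 CPM. *Ankrd1* was 3.90-fold lower in KO than in WT (log2 fold change -1.96, SE 0.13, adjusted p = 1.26e-06, edgeR) and 3.69-fold higher in KI than in WT (1.88, SE 0.16, adjusted p = 4.04e-06, edgeR). The 14.2-fold difference between KI and KO (adjusted p = 3.58e-13, edgeR) was the largest of the 10 genes in that comparison, and 1.72% of the 13269 genes tested had a lower log2 fold change in KO against KI.

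*Amotl2* encodes an angiomotin-like scaffold at cell junctions that binds YAP and promotes LATS activity, so that it acts as a feedback inhibitor. Its level was 47.6, 52.2 and 56.0 CPM in WT, 95.0, 113, 97.6 and 125 CPM in KO and 133, 132, 141 and 129.7 CPM in KI. Both modified lines lay above WT, and KI lay above KO. *Amotl2* rose 2.04-fold in KO (log2 fold change 1.03, SE 0.14, adjusted p = 0.000106, edgeR) and 2.58-fold in KI (1.37, SE 0.13, adjusted p = 8.29e-06, edgeR) against WT. The difference between KO and KI was small, -0.31 (SE 0.10, adjusted p = 0.0127, edgeR), and was lost with library totals (-0.25, adjusted p = 0.0703) and without KO 7 (-0.27, adjusted p = 0.0525).

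*Axl* encodes a receptor tyrosine kinase of the TAM family. It had 453, 474 and 562 CPM in WT, 662, 685, 683 and 731 CPM in KO and 846, 814, 839 and 709.8 CPM in KI. The WT libraries were below all others, while KI 8 fell inside the KO range. *Axl* rose 1.37-fold in KO (log2 fold change 0.46, SE 0.13, adjusted p = 0.0124, edgeR) and 1.62-fold in KI (0.69, SE 0.15, adjusted p = 0.00295, edgeR) against WT. KO against KI gave -0.21 (SE 0.09) and missed the threshold (adjusted p = 0.051, edgeR), which it passed without KI 8 (-0.28, adjusted p = 0.00715, edgeR) and without KO 8 (-0.24, adjusted p = 0.0444, edgeR). It also passed with DESeq2 (adjusted p = 0.0099), with DESeq2 size factors in edgeR (adjusted p = 0.038) and without the newly assembled entries (adjusted p = 0.0423, edgeR).

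*Ajuba* encodes a LIM-domain adaptor that binds LATS kinases and restrains them. Its level was 37.7, 44.6 and 57.6 CPM in WT, 50.1, 65.3, 56.5 and 58.5 CPM in KO and 72.0, 77.6, 75.0 and 65.9 CPM in KI. The KI libraries lay above all others, and WT 8 overlapped with KO. *Ajuba* rose 1.55-fold in KI against WT (log2 fold change 0.64, SE 0.16, adjusted p = 0.00624, edgeR). The value in KO against WT, 0.28 (SE 0.16), did not pass (adjusted p = 0.153, edgeR) and passed with library totals (0.67), with the replicate numbers as a block (0.33, adjusted p = 0.0479) and without WT 8 (0.49, adjusted p = 0.00683, edgeR). KO lay below KI by 0.33 on the log2 scale (SE 0.10, adjusted p = 0.01, edgeR), a call lost with library totals (-0.27, adjusted p = 0.0538, edgeR).

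**Figure D3:**
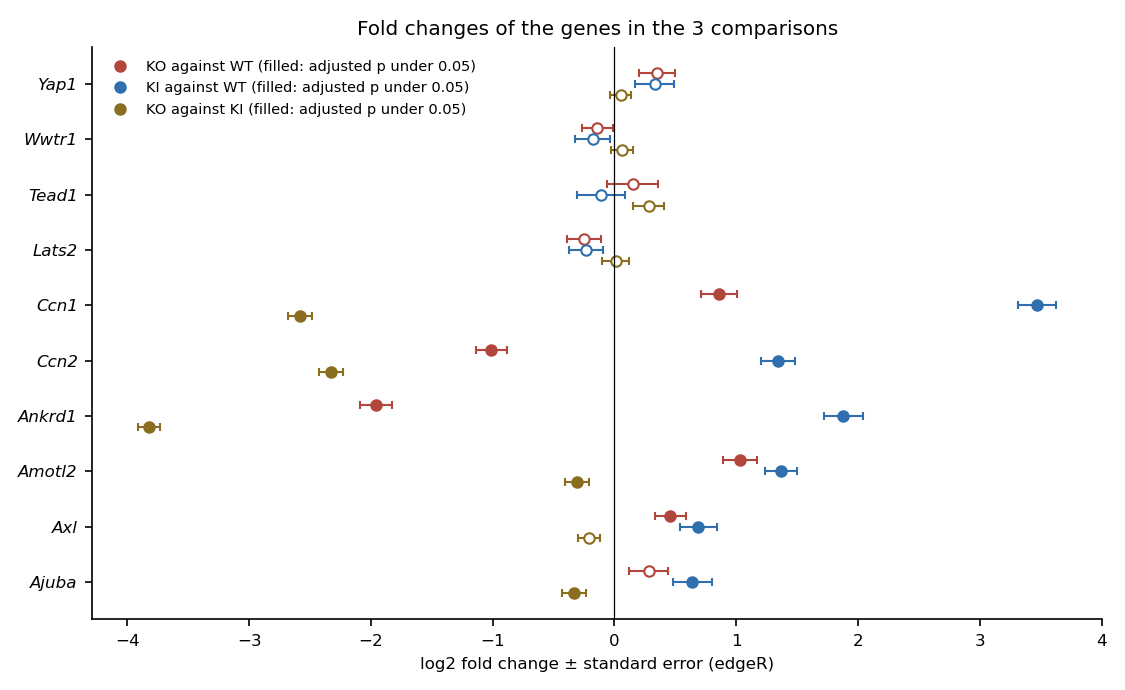
Log2 fold change with its standard error (horizontal axis, edgeR) of the 10 genes in the 3 comparisons; filled points passed an adjusted p under 0.05. *Ccn1*, *Ccn2*, *Ankrd1* and *Amotl2* have filled points in every comparison, from -3.82 for *Ankrd1* in KO against KI to 3.47 for *Ccn1* in KI against WT, and *Yap1*, *Wwtr1*, *Tead1* and *Lats2* have none.

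In KO against WT, 5 of the 10 genes changed, 3 higher and 2 lower, where 55.1% of the 13359 genes tested changed (26.7% higher and 28.4% lower). In KI against WT, 6 of the 10 changed, all of them higher, where 42.3% of all genes changed (21.2% higher and 21.0% lower). In KO against KI, 5 of the 10 changed, all of them lower in KO, where 54.0% of all genes changed and 27.0% were lower. With library totals the counts were 5 higher and 2 lower in KO against WT (median 0.60). They were 7 higher and 0 lower in KI against WT (median 0.97) and 0 higher and 3 lower in KO against KI (median -0.20). Over all genes, calls then went from 7364 to 7799, from 5722 to 6058 and from 7171 to 7015. Calls higher went from 3568 to 5675, from 2874 to 4620 and from 3582 to 3937. The medians of all genes were 0.38, 0.30 and 0.06 with library totals. Under TMM scaling the counts of calls in KO against WT and KO against KI are near the share of all genes. The number of changed genes there says little about these 10. The median over the 10 was 0.21, 0.66 and -0.26 in the 3 comparisons, against -0.03, -0.02 and 0.00 over all genes. Libraries of the 2 groups did not overlap for 6, 7 and 5 of the 10, where 55.1%, 44.6% and 48.8% of all genes did not. KO and KI were both compared with the same 3 WT libraries, so both comparisons share any error in WT.

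Levels can be ranked between genes only per length, and CPM was divided by the length of all annotated exons in kb. In WT, *Axl* had the highest value (98.6 ± 11.5 CPM per kb, SD, n = 3), followed by *Ankrd1* (63.8 ± 10.9) and *Ccn2* (58.5 ± 3.28), whose libraries overlapped. *Wwtr1*, *Ajuba* and *Ccn1* followed with 12.8, 12.8 and 10.8 CPM per kb and neighbouring ranges that overlapped, then *Amotl2*, *Yap1* and *Tead1* with 8.26, 7.74 and 6.18, and *Lats2* was lowest at 3.52 ± 0.445. In KI, *Ankrd1* came first (235 ± 8.97 CPM per kb, SD, n = 4), *Axl* (159 ± 12.5) and *Ccn2* (mean 148) overlapped, and *Ccn1* came next at 121 ± 8.80. In KO, *Axl* (137 ± 5.80 CPM per kb, SD, n = 4) stood above *Ccn2* (29.4 ± 3.74), and *Ccn1*, *Amotl2*, *Ankrd1* and *Ajuba* followed (20.0, 17.1, 16.6 and 15.8) with neighbouring ranges that overlapped. *Wwtr1*, *Yap1*, *Tead1* and *Lats2* closed the order in KO and KI, in that sequence and without overlap between neighbours.

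**Figure D4:**
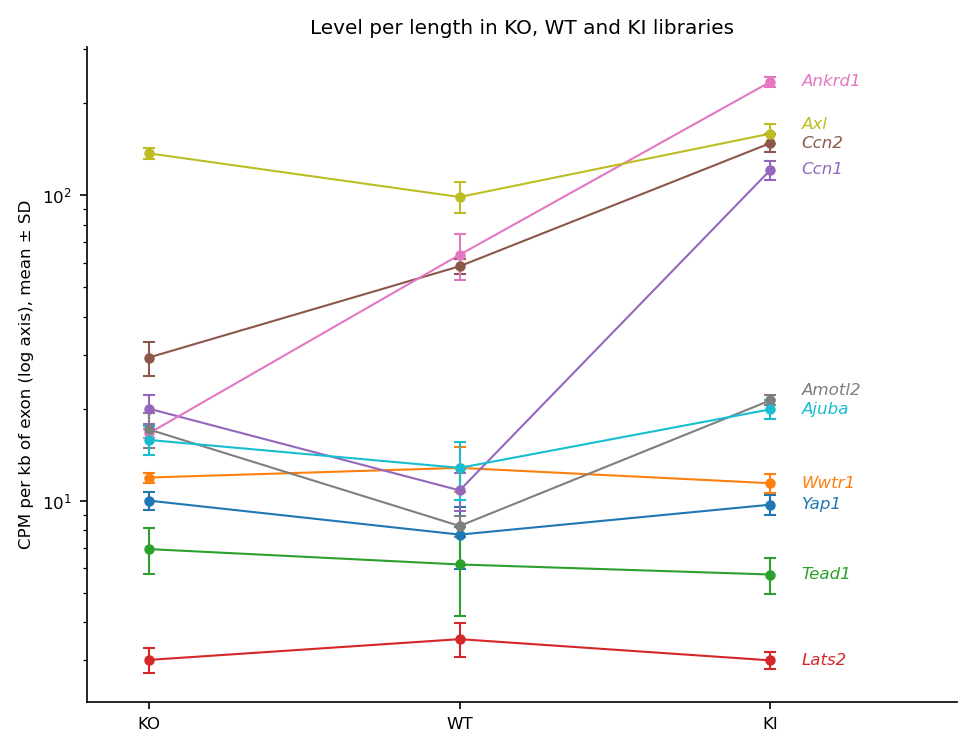
Mean level ± SD in CPM per kb of exon (vertical log axis) of the 10 genes in the KO (n = 4), WT (n = 3) and KI (n = 4) libraries; lines join the means of 1 gene. *Ankrd1* moves from 16.6 in KO to 63.8 in WT and 235 in KI, and *Ccn1* from 10.8 in WT to 121 in KI, while *Lats2* stays lowest in each group.

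The upstream part of the pathway was described from a list of 20 kinases, scaffolds and regulators, all of which were tested. In KO against WT, 2 rose and 6 fell (40.0% called), with a median of -0.03. Over all genes tested there, 55.1% were called (26.7% higher and 28.4% lower). The LIM-domain adaptor gene *Wtip* fell from 37.1 ± 4.15 to 5.42 ± 0.853 CPM (SD, log2 fold change -2.78, adjusted p = 4.24e-07, edgeR). *Frmd6*, encoding a FERM-domain activator of the cascade, fell by 1.39, *Amotl1* by 1.25, *Wwc1* by 0.97, *Sav1*, the scaffold of the MST kinases, by 0.90, and *Stk3*, which encodes the kinase MST2, by 0.61 on the log2 scale. *Taok2*, a kinase that activates MST kinases, rose by 1.07, and *Limd1*, a paralogue of *Ajuba* and *Wtip*, by 0.59. *Stk3* lost its call with library totals, where the counts were 8 higher and 5 lower. Over all 13359 genes, 5675 were then called higher.

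In KI against WT, 8 of the 20 rose and 4 fell (60.0% called), with a median of 0.25. Over all genes tested there, 42.3% were called (21.2% higher and 21.0% lower). The angiomotin genes *Amot* and *Amotl1* rose by 1.09 and 0.98 and *Nf2*, which encodes the upstream tumour suppressor merlin, by 0.73 on the log2 scale. *Wwc2*, *Taok2* and *Limd1* rose by 0.70, 0.67 and 0.64, and *Rassf1* and *Map4k4* by 0.49 and 0.46. *Wtip* fell by 1.71, *Mob1b* and *Mob1a*, coactivators of LATS kinases, by 0.80 and 0.56, and *Ptpn14* by 0.69. With library totals 11 were higher and 1 lower, and *Mob1a*, *Mob1b* and *Ptpn14* lost their calls. Over all 13534 genes, 4620 were then called higher. Leaving out each of the 7 libraries in turn, the call was lost 4 times for *Map4k4*, 3 times for *Rassf1* and once for *Mob1a* (without WT 7, -0.50). In KO against KI, 5 of the 20 were higher and 10 lower (75.0% called), against 54.0% of all genes (27.0% higher and 27.0% lower). The largest difference of the 20 was in *Amotl1* (-2.21, SE 0.17, adjusted p = 3.91e-08, edgeR). Its level was 8.07 ± 1.78 CPM in KO and 37.6 ± 7.08 CPM in KI (SD).

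Of the other TEAD and VGLL genes, which encode the DNA-binding partners and cofactors that bind the same partners, 5 of 7 were tested, and *Vgll1* and *Vgll2* were not. *Vgll3* had 72.7, 72.4, 71.8 and 81.3 CPM in KI 5, 6, 7 and 8, and between 7.41 and 11.3 CPM in all KO and WT libraries. KO and WT overlapped, and KI lay far above both. *Vgll3* rose 7.67-fold in KI against WT (log2 fold change 2.94, SE 0.16, adjusted p = 1.22e-07, edgeR), and the value in KO against WT was 0.01 (SE 0.19, 95% interval -0.37 to 0.39). *Tead2* had 8.27 ± 0.223 CPM in KO, 20.2 ± 0.502 CPM in WT and 51.9 ± 2.51 CPM in KI (SD), a 2.46-fold fall in KO (adjusted p = 1.6e-05, edgeR) and a 2.57-fold rise in KI (adjusted p = 9.07e-06, edgeR). *Tead4* rose 2.03-fold in KO (adjusted p = 0.000165, edgeR), and *Tead3* (0.58) and *Vgll4* (-0.07) did not pass in KO. *Tead3* passed there with library totals (0.97), with all 11 libraries in 1 fit (0.60), with the replicate numbers as a block (0.61) and without WT 8 (0.82). In KI against WT *Tead3* (-0.16), *Tead4* (0.36) and *Vgll4* (0.21) did not pass, and with library totals *Tead4* (0.69) and *Vgll4* (0.53) did. *Vgll4* also passed without WT 8 (0.33), and *Tead4* with all 11 libraries in 1 fit.

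Other genes of a commonly used YAP/TAZ target signature, 16 in the list, gave calls in both directions. In KO against WT 4 of 15 tested rose and 4 fell (median 0.02), and in KI against WT 4 of 16 rose and 4 fell (median 0.18). In KO against KI 5 of 14 were higher and 5 lower (median 0.02). Of all genes tested, 55.1% were called in KO against WT (26.7% higher and 28.4% lower). This share was 42.3% in KI against WT (21.2% higher and 21.0% lower) and 54.0% in KO against KI (27.0% higher and 27.0% lower). Calls in both directions are thus not particular to this list. With library totals the counts of the signature list were 5 higher and 4 lower in KO against WT. They were 6 higher and 1 lower in KI against WT (median 0.49), so the balance in KI depends on the scaling. The median of all genes in KI against WT was then 0.30, with 4620 of 13534 called higher. *F3*, which encodes tissue factor, rose 1.91-fold in KO (adjusted p = 0.000327, edgeR) and 3.90-fold in KI (adjusted p = 1.88e-06, edgeR), and was at 21.5, 11.1 and 43.4 CPM in KO, WT and KI. *Fjx1* fell by 0.85 in KO and rose by 0.88 in KI on the log2 scale, and *Igfbp3*, encoding an IGF-binding protein, fell by 2.01 in KO while its value of 0.40 in KI did not pass except with library totals (0.73) and without WT 7 (0.67). *Arhgef17* rose by 1.42 in KO and *Nuak2*, a kinase gene, by 0.84 in KI. *Dock5* rose by 0.78 in KO and fell by 0.64 in KI, the latter lost with library totals, with the replicate numbers as a block (-0.56), without WT 8 (-0.40) and without KI 6 (-0.59).

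Some members of the signature were near the limit of detection. *Gadd45a* and *Ptpn14*, also given here, were not, with at least 449 and 1248 counts in every library. *Nt5e*, encoding the ectonucleotidase CD73, rose from 0.344 ± 0.229 CPM in WT to 2.22 ± 0.336 CPM in KO and 1.36 ± 0.246 CPM in KI (SD). *Rbms3* had 3.42 ± 0.140 CPM in WT, with a mean of 0.0666 CPM in KO, and 0.937 CPM in KI 6 against at most 0.112 CPM in the other KI libraries. *Ccdc80* had 0.748 ± 0.281 CPM in WT and no count in any KO library, at least 9.02-fold lower if 3 counts per library are taken as the floor, which covers counting error only. *Gadd45a* fell by 0.44 in KI with an adjusted p of 0.0444 (edgeR), a call lost with library totals, with no filter on low counts, with the replicate numbers as a block and on leaving out 6 of the 7 libraries in turn. *Ptpn14*, which is in this list and in the upstream one, fell by 0.69 in KI.

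The families of *Ccn1*, *Ccn2* and *Axl* were followed next. Of the other CCN genes, *Ccn4* and *Ccn5* were tested and *Ccn3* and *Ccn6* were not. *Ccn4* had 24.3, 29.5 and 29.5 CPM in WT, 25.9 to 29.5 CPM in KO and 77.6, 73.7, 89.2 and 80.4 CPM in KI, with KI alone apart from the rest. It rose 2.88-fold in KI against WT (log2 fold change 1.53, SE 0.14, adjusted p = 7.35e-06, edgeR), and the value in KO was -0.01 (SE 0.13, 95% interval -0.27 to 0.24). *Ccn5* passed the test in both lines (adjusted p = 0.000518 in KO and 0.00341 in KI, edgeR), at 1.18 ± 0.323 CPM in KO and 0.847 ± 0.531 CPM in KI (SD) with 1 WT library above 0, at 0.0807 CPM. Of the TAM receptors and their ligands, *Tyro3* rose 3.09-fold in KO (adjusted p = 0.000163, edgeR) and 2.07-fold in KI (adjusted p = 0.00723, edgeR), from 2.64 ± 0.781 CPM in WT to 8.44 ± 0.386 and 5.56 ± 0.993 CPM (SD). The ligand gene *Pros1* fell by 0.51 on the log2 scale in KO, a call lost with library totals, and gave 0.05 in KI. *Mertk* and *Gas6* did not pass the filter on low counts.

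Junction and polarity genes, which feed into the cascade, gave 3 higher and 1 lower of 9 tested in KO against WT (median 0.17). In KI against WT they gave 1 higher and 2 lower (median 0.24). The shares called were 44.4% and 33.3%, against 55.1% and 42.3% of all genes. With library totals they were 6 higher and 1 lower (median 0.55) and 5 higher and 0 lower (median 0.54). The medians of all genes were then 0.38 and 0.30, with 5675 of 13359 and 4620 of 13534 genes called higher. *Fat1*, a protocadherin gene, rose by 0.89 in KO (adjusted p = 0.0109, edgeR) and by 0.62 in KI (adjusted p = 0.036, edgeR), while *Pals1*, a scaffold of the Crumbs complex, fell by 1.18 (adjusted p = 0.000265, edgeR) and 0.48 (adjusted p = 0.042, edgeR). *Crb3* fell by 0.70 in KI, and *Patj* and *Scrib* rose by 0.62 and 0.37 in KO. In KI, *Crb3* and *Pals1* lost their calls with library totals, and *Pals1* also with limma and with the replicate numbers as a block (-0.45). In KO against KI, 2 were higher and 3 lower (55.6% called, against 54.0% of all genes). Several of these calls were close to the threshold. Leaving out each of the 7 libraries in turn, calls in KO were lost 5 times for *Patj*, 4 times for *Scrib*, which also lost it without the newly assembled entries, and once for *Fat1* (without WT 7, 0.85), and calls in KI 5 times for *Pals1* and 4 times for *Fat1*. *Fat4* and *Dchs1* were not tested.

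*Ccn1*, *Ccn2* and *Ankrd1* are also known as targets of SRF. The list of SRF and its cytoskeletal targets gave 4 higher and 2 lower of 8 tested in KO against WT. It gave 4 higher and 0 lower of 7 in KI against WT, and 1 higher and 3 lower of 8 in KO against KI. Over all genes tested, 55.1% were called in KO against WT (26.7% higher and 28.4% lower). The shares were 42.3% in KI against WT (21.2% higher and 21.0% lower) and 54.0% in KO against KI (27.0% higher and 27.0% lower). With lists this short, the number of calls says little about SRF targets as a set. *Srf* itself rose by 0.56 in KO (adjusted p = 0.00299, edgeR) and by 0.69 in KI (adjusted p = 0.00139, edgeR). *Flna*, encoding the actin crosslinker filamin A, rose 2.56-fold in KO and 2.55-fold in KI, from 476 ± 113 CPM in WT to 1237 ± 195 and 1212 ± 174 CPM (SD). *Tpm1* rose by 0.32 in KO and 1.07 in KI, and *Vcl* fell by 0.39 in KO, a call lost with library totals. The calls of *Tpm1* and *Vcl* in KO were each lost on leaving out 5 of the 7 libraries in turn and with no filter on low counts, and that of *Tpm1* also with DESeq2 size factors and without the newly assembled entries. *Cnn1* had no count in any KO library and 1.34, 1.37 and 1.49 CPM in WT, at least 16.9-fold lower in KO with the same floor of 3 counts per library, and it rose 2.17-fold in KI against WT. *Myl9* had no count in any WT library and 0.906 ± 0.132 CPM in KO (SD), at least 7.54-fold higher with that floor. *Acta2*, *Tagln* and *Actg2* did not pass the filter in any comparison.

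**Figure D5:**
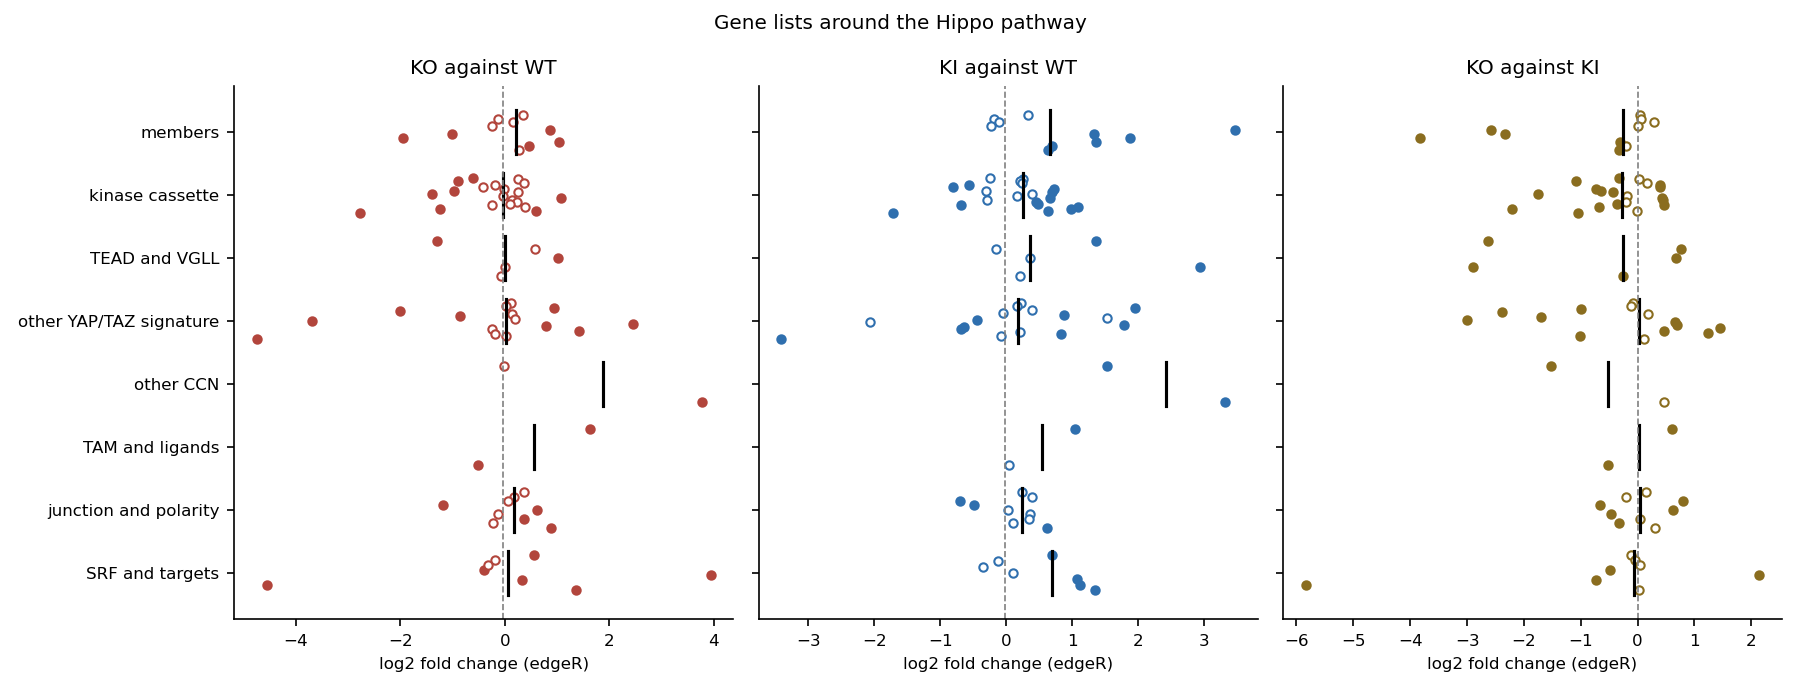
Log2 fold change (horizontal axes, edgeR) of every tested gene of the 10 and of 7 further lists in the 3 comparisons; filled points passed an adjusted p under 0.05, black bars are list medians and dashed lines the median of all genes tested. In KI against WT the median of the 10 genes is 0.66 and that of the 20 upstream genes 0.25. There, 4 of the 16 signature genes are higher and 4 lower, where 21.2% of all genes are higher and 21.0% lower.

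The profile over the 11 libraries, centred for each gene on a log2(CPM + 1) scale, was compared with those of 10356 other annotated genes by the root mean square difference, where a smaller value means more alike. The gene nearest to *Ccn1* was *Vgll3* (0.35), then *Padi1* (0.49). The gene nearest to *Ccn2* was *Tead2* (0.16), then *Tnfrsf21* (0.19), and *Ankrd1* had *Acsbg1* (0.21) and *Marcksl1* (0.30). Within the 10, *Ccn2* and *Ankrd1* were nearest to each other at 0.65, and *Ccn1* was nearest to *Ccn2* at 0.89. *Axl* and *Ajuba* differed by 0.12, as did *Wwtr1* and *Lats2*. The nearest genes were *Urb2* (0.09) and *Vac14* (0.12) for *Amotl2*, *Ywhah* (0.06) and *Rhoq* (0.07) for *Axl*, *Cul4a* and *Rad50* (both 0.07) for *Ajuba*, *Ctdp1* (0.05) and *Fzr1* (0.06) for *Yap1*, *Capn1* (0.06) and *Pitpnm1* (0.07) for *Wwtr1*, and *Ino80d* (0.07) and *Sh3d19* (0.08) for *Tead1*. *Lats2* had *Taz* (0.07), the symbol of tafazzin and not of the YAP paralogue, and *Trim8* (0.08).

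Markers of cell types were read in the same libraries. All 6 hepatocyte markers were above 3 counts in every library, with *Alb* the most abundant in each KO library and *Krt8* in each WT and KI library, and their summed level was 7612 to 9733 CPM in KO, 4670.1 to 6509.7 CPM in WT and 6398 to 7855 CPM in KI. *Alb* was at 4115 ± 524, 513 ± 198 and 246 ± 60.5 CPM and *Hnf4a* at 275 ± 12.4, 107 ± 26.7 and 133 ± 8.00 CPM in KO, WT and KI (SD). The list was split. In KO against WT *Alb*, *Hnf4a* and *Apoa1* rose (log2 fold changes 2.99, 1.35 and 3.77), *Ttr* fell (-0.93, adjusted p = 0.00139, edgeR), and *Krt8* (-0.11) and *Krt18* (-0.10) did not pass, though *Krt8* did with library totals. In KI against WT *Krt8* and *Krt18* rose by 0.62 and 0.86 and *Alb* fell by 1.06, while *Ttr* (-0.47), *Apoa1* (-0.98) and *Hnf4a* (0.31) did not pass. Each of these 3 passed under some alternatives, *Ttr* with DESeq2, with all 11 libraries in 1 fit, without WT 7 (-0.65) and without KI 7 (-0.58), *Apoa1* with limma and with all 11 libraries in 1 fit, and *Hnf4a* with library totals and without WT 8 (0.52). Of 4 cholangiocyte markers, which summed to 709.6 to 1221 CPM over all libraries, *Krt19* was the most abundant in each, *Epcam* had no count in any library, and *Krt7* was at 15.1 to 18.2 CPM in KO, 166 to 188 CPM in WT and 107 to 131 CPM in KI. In KO against WT *Krt7* fell by 3.40 and *Sox9* by 0.47 while *Krt19* rose by 0.49, and in KI against WT *Krt7* fell by 0.59 and the values of *Krt19* (-0.04) and *Sox9* (-0.36) did not pass. The calls of *Sox9* in KO and *Krt7* in KI were lost with library totals, that of *Sox9* also without WT 8 (-0.26), WT 7, KO 5 or KO 6, and those of *Krt8* and *Krt18* in KI without WT 7 and for *Krt8* also without KI 6. The 8 fibroblast and stellate cell markers, cells in which *Ccn2* is well known, summed to at most 1.69 CPM in any library, with *Col1a1*, *Dcn* and *Des* having the highest means in KO, WT and KI (0.520, 0.544 and 0.324 CPM) and *Col1a2* and *Lrat* at 0 throughout. The 4 endothelial markers summed to at most 0.425 CPM, with *Kdr* having the highest mean in KO (0.0210 CPM), *Pecam1* in WT and KI (0.0826 and 0.0675 CPM), and *Tek* at 0. The 4 macrophage markers summed to 1.32 to 2.21 CPM in KO, 6.73 to 9.20 CPM in WT and 2.52 to 5.66 CPM in KI, with *Cd68* the most abundant in each library but KI 6, where *Ptprc* was higher (2.07 against 1.63 CPM), and *Adgre1* at 0. Some hepatocyte, cholangiocyte and macrophage markers thus differed between the groups, in both directions within the first 2 lists, and their part in the changes of the 10 genes was not tested. In a culture, fewer cells of a state and less RNA per cell cannot be told apart.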

How the data were processed

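Polyadenylated RNA of AML12 cells was sequenced in 11 libraries (4 KO, 3 WT and 4 KI). The counts per gene were made and deposited by the authors, whose processing notes name HISAT2, TopHat2, Bowtie2 and StringTie without a role, and neither the genome build nor the counting tool is given in the sources used here. The deposited table holds 26472 lines, of which 10 with broken fields were left out, and counts were summed by gene name. The 11 FPKM columns and the authors' own comparison columns of fold changes and p-values were not used. Newly assembled entries, which carry no known gene name, took 9.65% to 25.3% of the counts per library and stayed in the library sizes, and a fit without them is among the alternatives.

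The 10 genes, the gene lists and the rules were chosen with earlier results of these data known. Genes passing edgeR's filter were scaled with TMM factors and tested by the quasi-likelihood method of edgeR (robust, prior count 2), in each comparison with the libraries of its 2 groups only, with Benjamini-Hochberg adjustment over all genes tested and a threshold of 0.05. Intervals are the estimate ± 1.96 SE. R 4.3.3, edgeR 4.0.16, DESeq2 1.42.0, limma 3.58.1, Python 3.11.15 and matplotlib 3.10.9 were used. The fits were tested on simulated KO and WT counts with known changes. These counts had no difference in composition between the groups, so the choice of scaling was not tested by them. Exon lengths came from GENCODE vM21, which need not be the authors' gene models, and promoters from RefSeq (GRCm38.p6). Named genes are the 10, the listed genes with the largest called changes or in the family of one of the 10, and for each of the 10 the 2 nearest profiles among genes whose log2(CPM + 1) averaged 2 or more, while listed genes beyond these were named after their values were seen. Alternatives were DESeq2 size factors, library totals, DESeq2, limma on log2(CPM + 1), no filter, all 11 libraries in 1 fit, a replicate block, leaving out new entries, 1 entry per gene, and leaving out each library.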

Additional observations from a re-analysis of the deposited data

Results flagged for a closer look

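In groups of 4 libraries, 126 sets of values of the genes named were examined for a single library far from the other 3, by the gap to the nearest value as a share of the whole range (Dixon's test at its 95% limit), of which 6.3 would be found by chance and 9 were. Among the 10 genes, *Yap1* in KO 5 (83.0 CPM, share 0.869) and *Lats2* in KO 5 (18.1 CPM, share 0.836) lay below the other KO libraries, as did *Sav1* of the upstream list in KO 5 (25.3 CPM, share 0.881). In KO 7, *Stk3* was high at 30.9 CPM (share 0.901). In KO 8, *Taok2* at 118 CPM (share 0.887) and *Cd68* at 2.09 CPM (share 0.875) lay above the other KO libraries. Among the KI libraries, *Vgll3* in KI 8 was high at 81.3 CPM (share 0.910), *Krt19* in KI 8 was low at 565 CPM (share 0.932), and *Rbms3* in KI 6 was high at 0.937 CPM (share 0.881).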

How the results depend on the processing

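The calls of *Ccn1*, *Ccn2* and *Ankrd1* kept their direction and stayed past the threshold under every alternative run in all 3 comparisons, as did *Amotl2* and *Axl* against WT and *Ajuba* in KI against WT. The count of the 10 genes called in KO against KI was 3 with library totals, against 5. Over all 13269 genes tested there, 7015 were called with library totals, against 7171. With library totals the sign reversed for *Wwtr1* (0.26) and *Lats2* (0.15) in KO against WT. In KI against WT it reversed for *Wwtr1* (0.13), *Tead1* (0.19) and *Lats2* (0.0835). That scaling moved the median of all genes to 0.38 in KO against WT and to 0.30 in KI against WT. In KO against KI, *Lats2* (0.01) gave -0.0094 with DESeq2 size factors and with DESeq2 and -0.0031 without newly assembled entries. Leaving out 1 library each, the values ranged from -0.23 to 0.0152 for *Wwtr1* and -0.0483 to 0.42 for *Tead1* in KO against WT, from -0.32 to 0.14 for *Tead1* in KI against WT, and from -0.0347 to 0.0633 for *Lats2* and -0.0114 to 0.091 for *Yap1* in KO against KI. *Tead1* passed in KO against KI without KO 5 (0.37) and without KI 7 (0.34), and *Axl* passed there with DESeq2 size factors, with DESeq2 (-0.23 in both) and without newly assembled entries (-0.22). Without WT 8, 7 of the 10 passed in each comparison with WT, while calls over all genes rose from 7364 to 8449 in KO and from 5722 to 6969 in KI against WT. The cause of these changes was not tested.

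Same-numbered libraries did not all deviate together. The correlation across genes was 0.50 for KO 8 and WT 8 and between -0.38 and 0.07 for the other 7 pairs, so numbers were not used as pairs. In a replicate block, KO and KI 5 and 6 were joined with WT 5-6. With it, 7 of the 10 passed in KO against WT, adding *Yap1* (0.40) and *Ajuba* (0.33). In KI against WT 6 passed, and in KO against KI 5. Over all genes, calls rose with the block from 7364 to 8183 in KO against WT. They fell from 5722 to 4891 in KI against WT and from 7171 to 6453 in KO against KI. Depth limits the genes below about 1 CPM, and 3 WT libraries limit every comparison with WT.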
